A study of Mus musculus with 8 samples.

Results

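4T1 and 66cl4 are mouse mammary carcinoma lines of BALB/c origin that, with the related lines 67NR and 4T1.2, trace back to the same spontaneous tumour. The comparison described here used 4 of the 8 RNA sequencing libraries, 2 of 4T1 and 2 of 66cl4, chosen by the cell line named in the sample labels, which spell the second line 66c14. Both lines can reach the lung of a mouse after spontaneous spread, and the study describes 66cl4 as the less metastatic of the pair. Cells of either line were grown in αMEM with foetal calf serum, untreated and without any engineered allele named in the labels. Total RNA was made into TruSeq RNA v2 libraries, and the study calls the 2 libraries of a line biological replicates. Each line stands for itself: metastasis was not measured in these files, and with 1 line on either side no difference in RNA can be tied to it.

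Carcinoma cells are often placed between an epithelial state, held together by E-cadherin, claudins and desmosomes, and a mesenchymal state with N-cadherin, motile behaviour and a secreted matrix. Transcription factors of the Snail, Zeb and Twist families repress epithelial genes, in many cases through short E-box sequences near the start of the gene. Tumour cells also differ in the proteases, chemokines and growth factors they release and in their standing response to interferon, which acts through STAT and IRF factors on elements in the promoters of antiviral genes.

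Total counts were 66269681 and 53926066 in the 4T1 libraries and 48608212 and 46127747 in the 66cl4 libraries, and the 10 most counted genes took 4.94 to 7.59% of a library. Log2 CPM (library-scaled counts with TMM factors) of replicates correlated at 0.995 in 4T1 and 0.995 in 66cl4 across genes, against 0.779 to 0.784 between libraries of different lines, and genes are not independent replicates. Luminal keratin genes, Epcam and Cdh1 summed to 1330 and 1780 RPKM (CPM divided by transcript length in kilobases) in the 4T1 libraries and to 416 and 417 RPKM in the 66cl4 libraries. The mesenchymal markers Vim, Fn1, Cdh2 and Zeb1 together held 2670 and 3820 RPKM in 4T1 and 2150 and 1810 RPKM in 66cl4, most of it Vim in both lines. Leucocyte, endothelial and erythroid markers summed to at most 0.941 RPKM in any of these libraries, with Cd3e, Adgre1 and Hbb-bs at 0 counts in all 4. In RNA from bulk cells, a lower level in each cell and fewer cells with the transcript cannot be told apart.

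The promoters shown next belong to genes that separate the lines. They are RefSeq windows of the 250 bases before the gene start on build GRCm38.p6, written 5′ to 3′ on the strand of the gene. For the epithelial genes the capitals mark the E-box CACCTG on either strand (CAGGTG on the other).
Epcam (chr17:87635729-87635978, plus strand): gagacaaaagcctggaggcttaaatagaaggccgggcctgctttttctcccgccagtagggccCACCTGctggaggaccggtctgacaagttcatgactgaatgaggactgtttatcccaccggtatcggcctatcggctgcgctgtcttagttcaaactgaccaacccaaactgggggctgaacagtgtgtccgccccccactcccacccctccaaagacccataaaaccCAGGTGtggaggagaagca
Krt18 (chr15:102027966-102028215, plus strand): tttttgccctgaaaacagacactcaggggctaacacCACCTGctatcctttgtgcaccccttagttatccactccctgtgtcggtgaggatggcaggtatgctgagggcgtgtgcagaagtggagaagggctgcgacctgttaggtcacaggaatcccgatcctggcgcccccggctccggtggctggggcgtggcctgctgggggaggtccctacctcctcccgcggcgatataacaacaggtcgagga
Cldn7 (chr11:69965171-69965420, plus strand, the second of 2 windows): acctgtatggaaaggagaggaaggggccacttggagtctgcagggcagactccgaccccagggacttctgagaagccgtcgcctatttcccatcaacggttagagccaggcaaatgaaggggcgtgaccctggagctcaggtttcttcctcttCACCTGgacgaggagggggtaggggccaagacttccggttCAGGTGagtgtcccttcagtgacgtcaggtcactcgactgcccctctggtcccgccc

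Among the 30 epithelial genes that were over 2-fold higher in 4T1, 18 had a window in the RefSeq table, and 13 of these (72.2%) held at least 1 CACCTG. The same letters stood in the windows of 18.4% of the 10927 tested genes that have one and in 17.2% of all 32851 windows. Cldn3 and Marveld2 had windows without a match. Cldn7, a claudin, had 1.08 and 1.1 CPM in 4T1 and 1 and 2 counts in 66cl4. For the interferon-stimulated genes the capitals mark GAAA, any 2 bases and GAAA again on either strand (TTTC, 2 bases and TTTC on the other), the core of the element bound by the interferon-activated factors.
Ifit1 (chr19:34640639-34640888, plus strand): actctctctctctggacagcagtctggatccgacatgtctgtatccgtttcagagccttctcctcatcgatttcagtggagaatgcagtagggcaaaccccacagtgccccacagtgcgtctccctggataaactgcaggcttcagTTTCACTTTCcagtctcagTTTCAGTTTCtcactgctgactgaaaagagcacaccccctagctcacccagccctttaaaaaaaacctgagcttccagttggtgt
Ifit3 (chr19:34583279-34583528, plus strand): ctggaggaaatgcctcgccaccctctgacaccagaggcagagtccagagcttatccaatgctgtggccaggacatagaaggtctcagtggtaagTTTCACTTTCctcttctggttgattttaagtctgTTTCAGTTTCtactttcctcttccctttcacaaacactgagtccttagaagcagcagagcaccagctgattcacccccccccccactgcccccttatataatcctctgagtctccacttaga
Ifit3b (chr19:34607707-34607956, plus strand): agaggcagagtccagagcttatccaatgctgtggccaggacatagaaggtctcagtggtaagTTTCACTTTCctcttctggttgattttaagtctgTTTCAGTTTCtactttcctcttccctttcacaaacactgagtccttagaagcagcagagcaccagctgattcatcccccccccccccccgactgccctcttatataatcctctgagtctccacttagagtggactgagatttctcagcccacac
Trim30a (chr7:104465194-104465443, minus strand, the first of 2 windows): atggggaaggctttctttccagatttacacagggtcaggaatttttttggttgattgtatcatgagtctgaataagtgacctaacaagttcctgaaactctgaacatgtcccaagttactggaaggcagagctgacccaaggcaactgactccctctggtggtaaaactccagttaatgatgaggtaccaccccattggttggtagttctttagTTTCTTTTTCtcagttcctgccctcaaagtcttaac

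Of the 40 interferon-stimulated genes that were over 2-fold lower in 4T1, 30 had a window and 16 of these (53.3%) held this motif, against 3.2% of the tested genes with a window and 2.98% of all windows. Ifit3 and Ifit3b carry nearly the same sequence around their 2 matches, and 35.7% of the 75-base stretches of the Ifit3b transcripts (GENCODE M21) also occur in other genes, most often in Ifit3, so that their counts cannot be fully separated. Ifit1, which binds foreign RNA, had 9.3 and 12.2 CPM in 4T1 and 133 and 79 CPM in 66cl4. The Irf7 window had no match. The members were picked by their direction between these lines, so both shares are descriptions of sequence and no test of a factor.

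The lines differed at most genes. Of 13923 genes tested with edgeR's quasi-likelihood test, 4857 (34.9%) were higher in 4T1 and 4899 (35.2%) were lower at a Benjamini-Hochberg adjusted p under 0.05. With a second requirement of more than 2-fold, 2356 genes (16.9%) were higher in 4T1 and 2441 (17.5%) were lower, 34.5% in all. The median log2 fold change of all genes, 4T1 over 66cl4, was -0.003, and the median size of the change was 0.65. Among these, 231 genes over 2-fold higher in 4T1 had 0 counts in both 66cl4 libraries and 228 genes over 2-fold lower had 0 counts in both 4T1 libraries. These shares are the background for each list of genes described next. In the values that follow, 2 numbers joined by "and" are the first and second library of a line. A gene at 0 counts in both libraries of a line is given an "at least" fold, computed against 3 counts per library. A ratio with a counting interval covers counting error only. Genes are said not to differ only where they were not called and the 95% interval of the log2 fold change lay within ±0.5.

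**Figure D1:**
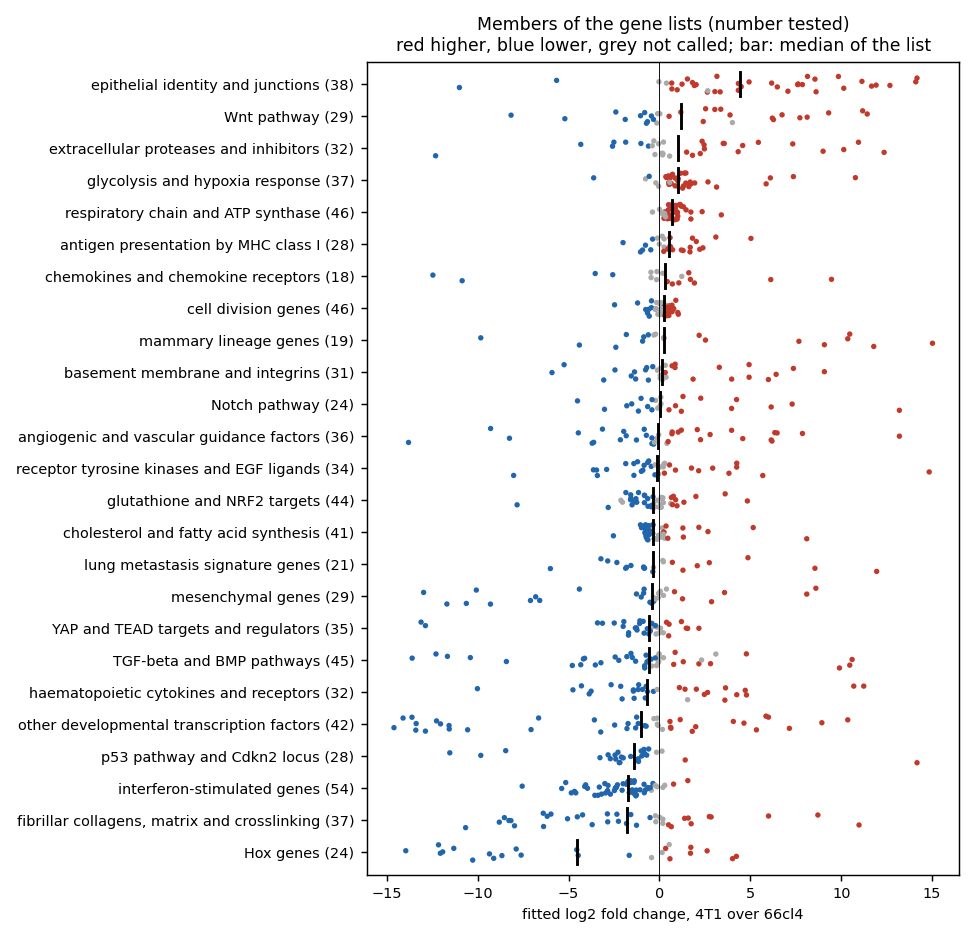
Fitted log2 fold change (4T1 over 66cl4, horizontal axis) of each tested member of 25 gene lists (rows, ordered by median, number tested in parentheses); red points are called higher in 4T1, blue points lower, grey points neither, and the black bar is the median. Epithelial genes lie furthest to the right with a median of 4.42 and Hox genes furthest to the left with -4.51, and for genes at 0 counts in 1 line the position depends on the prior count.

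Epithelial genes were mostly higher in 4T1. Of 50 listed epithelial genes 38 could be tested, of which 33 were higher in 4T1, 2 were lower and 3 were not called, and 84.2% were past 2-fold against 34.5% of all genes. The median log2 fold change of the list was 4.42, and 4.38 with genes at 0 counts set to their bounds. A gene near 0 in both lines fails the filter, so the 12 untested members, Esrp1, Ehf, Dsc2 and Dsg2 among them, say nothing of either line. Epcam, a cell surface adhesion protein of epithelia (entrez 17075, chr17:87635979-87651127), had 38.9 and 46.7 CPM in the 4T1 libraries and 0 counts in both 66cl4 libraries, which makes it at least 642-fold higher in 4T1 (adjusted p = 6.56e-09). Perp, a desmosome protein and p53 target, had 42.6 and 47.5 CPM in 4T1 and likewise 0 counts in 66cl4, at least 676-fold. For both genes the 2 lines do not come near each other in any library. E-cadherin (Cdh1, chr8:106603350-106670247) had 2375 and 1765 counts in 4T1 against 7 and 2 in 66cl4, a log2 fold change of 8.55 ± 0.44 (SE; adjusted p = 1.92e-09).

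The tight junction genes went the same way. Cldn3, a claudin of the junction strands, had 4587 and 4764 counts in 4T1 against 1 and 0 in 66cl4, a ratio of 7841, 4T1 over 66cl4, with a 95% counting interval of 1407 to 309700. Marveld2, the tricellulin of junction corners, was read at 10.5 and 8.35 CPM in 4T1 and at 0 counts in both 66cl4 libraries, at least 142-fold. The keratin Krt18 was abundant in both lines but more so in 4T1, with 845 and 1200 CPM against 115 and 113 CPM (log2 fold change 3.16 ± 0.16), and its partner Krt8 had 1262 and 1603 against 602 and 606 CPM. So 66cl4 kept the simple keratin pair while its adhesion genes were close to 0. Tjp1, the scaffold ZO-1 that non-epithelial cells also use, did not differ, with 287 and 222 CPM against 263 and 255 CPM and a log2 fold change of -0.03 ± 0.12. Both members lower in 4T1 stood far from the others: Cdh13, a cadherin anchored without a cytoplasmic tail, had 0 and 1 counts in 4T1 against 1214 and 954 in 66cl4, and the grainyhead factor Grhl1 had 11 and 2 against 245 and 311 (log2 fold change -5.66 ± 0.51).

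Mesenchymal genes were not simply the reverse. Of 29 tested, 6 were higher in 4T1, 16 were lower and 7 were not called, with a median of -0.42. N-cadherin (Cdh2) had 0 and 1 counts in 4T1 against 4502 and 3980 in 66cl4, a ratio of 10120, 66cl4 over 4T1, with a 95% counting interval of 1815 to 399600. Snai2, a Snail family repressor, had 0 and 3 counts in 4T1 against 4222 and 4808 in 66cl4 (adjusted p = 8.05e-10). The basic helix-loop-helix factor Twist2 was read at 1 and 2 against 1475 and 1473 counts, although 45.3% of its 75-base stretches also lie in another transcript. Zeb1, another repressor of E-cadherin, had 0.459 and 0.453 CPM in 4T1 and 65.1 and 60 CPM in 66cl4. Their relatives Zeb2 and Twist1 were well read in both lines and were lower in 4T1 by less than 2-fold. Zeb2 had 3554 and 2407 counts against 3323 and 2820 (log2 fold change -0.31). Twist1 had 6127 and 4698 counts against 7702 and 8882 (-0.87). The neural adhesion molecule Ncam1 had 1 count in each 4T1 library and 1553 and 1425 counts in 66cl4.

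Snai1, the closest relative of Snai2, had the opposite pattern. It had 957 and 562 counts in 4T1 and only 2 and 1 in 66cl4, a ratio of 425, 4T1 over 66cl4, with a 95% counting interval of 145 to 2061 (adjusted p = 5.32e-08). The forkhead factor Foxc2 was also higher in 4T1, at 10.2 and 9.52 CPM against 1 and 2 counts in 66cl4. Endoglin (Eng), a TGF-beta co-receptor, had 104 and 87.9 CPM in 4T1 and 8.02 and 8.04 CPM in 66cl4 (log2 fold change 3.58 ± 0.13). Galectin-1 (Lgals1) rose from 1445 and 1376 CPM in 66cl4 to 8681 and 11910 CPM in 4T1, the highest level per length of any gene over 4-fold higher there, with 12870 RPKM on average against 1763. Caldesmon (Cald1) and the splicing regulator Qk did not differ, with log2 fold changes of -0.04 ± 0.091 and 0.05 ± 0.085.

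**Figure D2:**
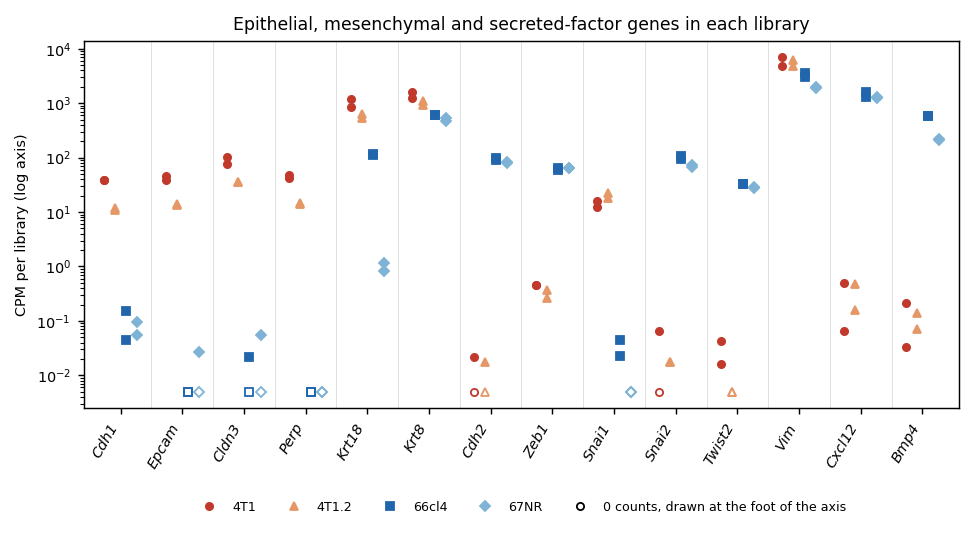
CPM (log axis) of epithelial, mesenchymal and secreted-factor genes in each library of the 4 lines; filled points are values, open points at the foot are libraries with 0 counts, and each line has 2 points. The 4T1 and 66cl4 libraries are apart for every gene drawn, by over 100-fold for Cdh1 and Zeb1 and by less for Krt8 and Vim, and the 4T1.2 and 67NR libraries are drawn for reference only.

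Genes of the fibrillar matrix were mostly lower in 4T1. Of 37 tested, 22 were lower, 10 were higher and 5 were not called, 78.4% were past 2-fold, and the median log2 fold change was -1.81. Col5a2, a chain of fibril-nucleating collagen V, had 0 and 2 counts in 4T1 against 1674 and 1397 in 66cl4. Col6a2, a collagen VI chain, had 0.344 and 0.281 CPM against 151 and 134 CPM (log2 fold change -8.81 ± 0.22). Biglycan (Bgn), a small matrix proteoglycan, had 0 and 2 counts against 362 and 339. The cross-linking enzyme Loxl1 had 10 counts in each 4T1 library and 2100 and 2167 counts in 66cl4. These 4 genes were thus close to 0 in 4T1 and moderate in 66cl4.

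The collagen chaperone HSP47, encoded by Serpinh1 (chr7:99345375-99353239), did not follow the collagens. It had 720.2 and 819 CPM in 4T1 and 0.552 and 0.201 CPM in 66cl4, a log2 fold change of 10.98 ± 0.32 (adjusted p = 4.91e-10). Fibulin-1 (Fbln1), an elastic fibre and basement membrane protein, had 28.4 and 29.7 CPM against 4 and 2 counts in 66cl4. Tenascin-C (Tnc) was low in both lines and higher in 4T1, with 83 and 55 counts against 12 and 5. Loxl2 was called higher as well (110 and 96 against 11 and 13 counts), but 43.6% of its stretches are shared with another gene. Sparc, a collagen-binding glycoprotein, and P4ha1, a prolyl hydroxylase of collagen, did not differ, with log2 fold changes of 0.19 ± 0.099 and -0.20 ± 0.13. Sparc was called without the first 4T1 library (0.27, adjusted p = 0.0394) and P4ha1 without the second (-0.39, adjusted p = 0.00759).

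Basement membrane and integrin genes split about evenly, with 13 of 31 higher in 4T1, 11 lower and 7 not called. So did all genes, at 34.9% higher and 35.2% lower. Integrin beta-3 (Itgb3), a vitronectin receptor subunit, had 26.8 and 23.7 CPM in 4T1 and 0 and 4 counts in 66cl4 (log2 fold change 9.07 ± 0.86). Itga2, a collagen receptor subunit, had 710 and 347 counts against 4 and 1. In turn Itgb5, the alternative beta partner of alpha-v, had 85.5 and 100.4 CPM in 4T1 and 521 and 491 CPM in 66cl4, and the laminin receptor subunit Itga7 had 8.66 and 8.01 against 70.3 and 69.2 CPM. The nidogens, which link laminin to collagen IV, were exchanged between the lines: Nid1 had 621 and 462 counts in 4T1 against 6 and 8 in 66cl4, and Nid2 had 10 and 3 against 192 and 226. Itgb1 and Itga3, the most counted integrin subunits named here, did not differ, with log2 fold changes of 0.06 ± 0.095 and 0.16 ± 0.11.

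Secreted proteases were more often higher in 4T1. Of 32 protease and inhibitor genes, 16 were higher in 4T1, all of them over 2-fold, 7 were lower and 9 were not called. Urokinase (Plau, chr14:20836662-20843388), which activates plasminogen at the cell surface, had 744 and 756 CPM in 4T1 and 0.376 and 0.379 CPM in 66cl4, a log2 fold change of 10.95 ± 0.23 (adjusted p = 1.79e-10). Gelatinase B (Mmp9) had 184 and 171 CPM against 0.464 and 0.223, and stromelysin (Mmp3) had 1322 and 1400 against 8.42 and 8.44 CPM, 161-fold higher in 4T1. In all 3 cases replicates of a line lay close together compared with the gap between lines. Serpine2, an inhibitor of urokinase and thrombin, was higher in 4T1 too, with 400.0 and 444 CPM against 6 and 1 counts in 66cl4, and so was the metalloprotease Adam19, with 2070 and 1008 counts against 1 in each 66cl4 library.

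The aggrecanases, which cleave cartilage-type proteoglycans, were divided. Adamts5 had 0 and 2 counts in 4T1 against 5167 and 4459 in 66cl4, a ratio of 5740, 66cl4 over 4T1, with a 95% counting interval of 1589 to 47400, and Adamts1 had 33 and 28.8 CPM against 634 and 607 (log2 fold change -4.33 ± 0.11). Adamts4 was instead higher in 4T1, with 26.1 and 24.4 CPM against 2.36 and 1.9. Reck, a membrane-bound inhibitor of metalloproteinases, had 8.37 and 8.44 CPM in 4T1 and 51.3 and 49.1 CPM in 66cl4. The lysosomal cathepsins did not move together. Ctsl was higher in 4T1, at 3727 and 4312 CPM against 728 and 716, with 24.6% of its stretches shared with another transcript, whereas Ctsb and Ctsd had log2 fold changes of 0.22 ± 0.11 and -0.25 ± 0.11 and were not called. Without the first 4T1 library Ctsb was called at 0.35 (adjusted p = 0.0127), and without the second Ctsd was called at -0.40 (adjusted p = 0.00518).

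Genes linked to breast cancer metastasis, many but not all of them from lung signatures, lay on both sides, more of them lower in 4T1. Of 21 tested, 7 were higher in 4T1, 11 were lower and 3 were not called, with a median of -0.36. Of all genes 34.9% were higher and 35.2% lower. The collagenase Mmp1a had 10.4 and 8.82 CPM in 4T1 and 0 counts in both 66cl4 libraries, at least 145-fold. The adhesion receptor Vcam1 had 140.0 and 152 CPM against 5.13 and 4.84 (log2 fold change 4.87 ± 0.094). In the opposite direction, Ly6e, a GPI-anchored surface protein, had 17.5 and 19.6 CPM in 4T1 and 1177 and 1190 in 66cl4, Id1, an inhibitor of helix-loop-helix factors, had 41.4 and 44.5 against 387 and 412, and osteopontin (Spp1) had 599.6 and 806 against 5467 and 4622 CPM. The mannosidase Man1a was not called (0.22 ± 0.093, adjusted p = 0.0592), and it crossed the threshold under 6 of the alternatives.

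Of 41 cytokine and cytokine receptor genes 32 could be tested, of which 12 were higher in 4T1, 18 were lower and 2 were not called. Of all genes 70.1% were called. Of the tested members 78.1% were past 2-fold, against 34.5% of all genes. Csf3, which encodes G-CSF, the growth factor of neutrophils, had 21 and 17.1 CPM in 4T1 and 0.994 and 1 CPM in 66cl4 (log2 fold change 4.25 ± 0.21, adjusted p = 4.86e-08). Csf1, the growth factor of macrophages, had the reverse, with 157 and 129.9 CPM against 846 and 962 and a log2 fold change of -2.66 ± 0.14. The epithelial cytokine Tslp had 202 and 235 against 6.74 and 9.06 CPM. Il23a, the p19 chain of interleukin-23, had 57.5 and 61.4 CPM in 4T1 and 1 count in each 66cl4 library, and the receptor chain Il13ra1 had 56.4 and 61.5 CPM against 1 and 2 counts.

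The interleukin-33 receptor ST2 (Il1rl1, chr1:40404864-40465418) was the largest difference of the list on the 66cl4 side. It had 8 and 7 counts in 4T1 against 6374 and 6783 in 66cl4, a log2 fold change of -10.01 ± 0.29. The receptors of LIF and oncostatin M followed it: Lifr had 10 and 6 against 206 and 162 counts, and Osmr had 2.01 and 2.55 CPM against 35.6 and 30.2. Il15 had 1.51 and 1.6 CPM in 4T1 and 22 and 19.9 in 66cl4. Tnf was barely read in either line, with 20 and 18 counts in 4T1 against 1 and 0 in 66cl4, a ratio of 31.9, 4T1 over 66cl4, with a 95% counting interval of 5.38 to 1291 (adjusted p = 0.000677). Stem cell factor (Kitl) did not differ, at -0.12 ± 0.14, but was called without the second 66cl4 library (-0.35, adjusted p = 0.0203).

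Among 18 genes of the list of chemokines and their receptors, which also holds Ackr3, Ccr7 and Cmtm3, 8 were higher in 4T1, 4 were lower and 6 were not called. Cxcl12, the ligand of CXCR4 (chr6:117168535-117181368), had only 4 and 23 counts in the 4T1 libraries and 1300 and 1597 CPM in the 66cl4 libraries, a log2 fold change of -12.46 ± 0.57 (adjusted p = 6.6e-09). The 4T1 libraries differ at this low level, while both stay far under 66cl4. Cxcl3, a neutrophil chemokine, had 0 counts in both 4T1 libraries and 194 and 211 in 66cl4, at least 79-fold lower in 4T1, and the interferon-induced Cxcl10 had 2.69 and 2.57 against 14.8 and 16.3 CPM. Ccl20, the ligand of CCR6, had 553 and 469 counts in 4T1 against 1 and 0 in 66cl4, and Cxcl16 had 847 and 812 against 6 and 14 (15.4% of stretches shared with the neighbour Zmynd15). The monocyte chemokine Ccl2 had 50.8 and 53.1 CPM against 13.6 and 18.3, and Ccl5 had 10.3 and 11.7 against 5.35 and 5.16 (log2 fold change 1.07 ± 0.16). Cxcl11 was not called, at 11 and 17 counts against 5 and 5 (adjusted p = 0.0698), but was at 1.70 without the first 4T1 library (adjusted p = 0.0253), and Cxcl2 was below the filter. Cx3cl1 did not differ (-0.14 ± 0.13).

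Angiogenic and guidance factors lay on both sides, with 16 of 36 higher in 4T1, 16 lower and 4 not called. All genes divided evenly too, at 34.9% higher and 35.2% lower. Fgf1 had 88.5 and 79.7 CPM in 4T1 and 0.685 and 1.21 in 66cl4 (log2 fold change 6.47 ± 0.24), and the VEGF receptor Flt1 had 37.3 and 34.5 against 0.486 and 0.491. The slit receptor Robo1 had 376 and 234 counts in 4T1 against 4 and 2 in 66cl4. Its ligand gene Slit2 showed the opposite, with 0 counts in both 4T1 libraries and 36.6 and 33.2 CPM in 66cl4, at least 613-fold lower in 4T1. The semaphorins are secreted axon and vessel guidance cues. Sema3a had 0.655 and 0.712 CPM in 4T1 and 500.4 and 352 CPM in 66cl4, and Sema3c had 0.802 and 0.712 CPM against 276 and 188. Vegfd was also lower in 4T1 (26 and 10 against 311 and 352 counts). Vegfa, the principal endothelial growth factor, did not differ, at 64 and 70.4 CPM against 67.7 and 70.5 CPM and a log2 fold change of -0.04 ± 0.096. Pdgfb was modestly higher in 4T1, with 98.6 and 93.7 against 57.9 and 61.1 CPM (log2 fold change 0.69 ± 0.083).

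In the Notch pathway the called ligands were on the 4T1 side and receptors and regulators on both. The list as a whole divided 10 to 9 with 5 of 24 not called, beside 34.9% higher and 35.2% lower of all genes. Dll1 had 23.9 and 22.1 CPM in 4T1 and 0 counts in both 66cl4 libraries (at least 345-fold, with 13.7% of stretches shared with another transcript). Dll4 had 21.6 and 18.1 CPM against 0.243 and 0.312 (log2 fold change 6.15 ± 0.33), and Jag2 had 24.2 and 24.2 against 1.66 and 1.43. These 3 ligands were over 10-fold higher, and Jag1 was higher by less (1.21 ± 0.18). Of the receptors, Notch4 was higher in 4T1 (11.4 and 7.96 against 0.53 and 0.491 CPM), while Notch3 (6 and 3 against 108 and 68 counts) and Notch2 (41.3 and 28.2 against 129 and 112 CPM) were lower. Rbpj, the DNA-binding partner of cleaved Notch, had 161 and 161 CPM in 4T1 and 456 and 470.0 in 66cl4, and Numbl, an adaptor that restrains Notch, had 7.84 and 7.27 against 58.6 and 64.2. The target gene Hes1 did not differ, at 0.08 ± 0.079. Of the remaining called members, Lfng, Mfng, Nrarp, Numb and Hes6 were higher in 4T1, with log2 fold changes of 0.53 to 7.30. Hey1, Rfng, Maml1, Maml2 and Maml3 were lower, at -1.16 to -0.40.

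Wnt pathway genes leaned to 4T1, with 15 of 29 higher, 10 lower and 4 not called, against 34.9% higher and 35.2% lower of all genes. The ligand Wnt6 had 37.6 and 53 CPM in 4T1 and 0.287 and 0.134 in 66cl4. The receptor Fzd3 had 437 and 293 counts in 4T1 and 0 in both 66cl4 libraries, at least 101-fold, and Lgr6, a receptor for R-spondins, had 1943 and 1279 counts against 2 in each 66cl4 library. Sfrp1, a secreted inhibitor that binds Wnt proteins, was higher in 4T1 as well, at 31.3 and 31.4 CPM against 1 and 0 counts. Axin2, the feedback gene commonly read as a Wnt target, was lower in 4T1: it had 1 and 0 counts there and 131 and 171 in 66cl4, a ratio of 360.2, 66cl4 over 4T1, with a 95% counting interval of 64.2 to 14270. Dkk3 was lower as well (3 and 0 against 45 and 55 counts), Fzd1 had 5.45 and 4.47 against 17.9 and 18.7 CPM, and Wnt9a and the co-receptor Ryk did not differ (0.02 ± 0.11 and -0.10 ± 0.092). Axin2 alone does not give the direction of the pathway. Notum (416 and 349 against 30 and 32 counts, log2 fold change 3.38) and Tcf7 (1.18) were higher in 4T1, and Znrf3 was lower (-0.44).

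The TGF-beta and BMP list leaned to 66cl4, with 25 of 45 lower in 4T1, 9 higher and 11 not called. Bmp4 had 2 and 10 counts in the 4T1 libraries and 577 and 570.1 CPM in 66cl4, a log2 fold change of -12.29 ± 0.50 (adjusted p = 4.72e-10). Bmp7 had the reverse, 1170 and 1062 counts in 4T1 against 0 and 1 in 66cl4. The lines thus differed in which of these BMP ligand genes was read. The extracellular BMP antagonist Grem1 had 0 counts in both 4T1 libraries and 32.6 and 28 CPM in 66cl4, at least 532-fold lower in 4T1. The decoy receptor Bambi was also at 0 in 4T1, with 7.89 and 7.95 CPM in 66cl4 (at least 139-fold), whereas the antagonist chordin (Chrd) was higher in 4T1 (102 and 70 against 2 and 3 counts). Of the inhibin subunits, Inhbb had 131 and 118 counts in 4T1 but 0 in 66cl4, and Inha had 0 in 4T1 and 152 and 145 in 66cl4. The BMP target Id1 was lower in 4T1 as given already, and so were Id2 and Id3 (log2 fold changes -1.31 and -1.565). Smad6 (528 and 420 against 7249 and 7209 counts) and Smad7 (log2 fold change -2.433) were lower too. Id4 went the other way, with 208 and 164 counts in 4T1 but 0 in 66cl4. The receptor Tgfbr2 and the latency protein Ltbp3 did not differ (-0.16 ± 0.091 and -0.01 ± 0.12).

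Receptor tyrosine kinases and their ligands were divided, 11 of 34 higher in 4T1, 16 lower and 7 not called, beside 34.9% higher and 35.2% lower of all genes. The EGF receptor ligand Tgfa had 80.7 and 62.8 CPM in 4T1 and 0 counts in both 66cl4 libraries, at least 1077-fold higher. Other ligands of the EGF family went either way. Betacellulin (Btc, 0.999 and 0.906 against 10.9 and 10.2 CPM), neuregulin-1 (Nrg1, 3.41 and 2.55 against 38 and 36.4 CPM) and Egf (9 and 10 against 52 and 69 counts) were lower in 4T1. Hbegf (0.55 ± 0.093) and Epgn (27 and 26 against 7 and 6 counts) were higher, and Areg, Nrg2 and Nrg4 were not called. Fgfr3 had 14.2 and 12.3 CPM against 0.309 and 0.201, the phagocytic receptor Mertk had 14.2 and 12 against 0.685 and 0.692, and the ephrin receptor Epha1 had 76.8 and 78.5 against 3.36 and 4.78, whereas its relative Ephb3 had 4.47 and 4.66 against 49.6 and 47.6. Igf2 was read at 6 and 11 counts in 4T1 against 1932 and 1839 in 66cl4, with 60.7% of its stretches shared with other transcripts. The hepatocyte growth factor receptor Met did not pass the threshold (0.21 ± 0.097, adjusted p = 0.0744), but did without the first 66cl4 library (0.34, adjusted p = 0.0197).

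Interferon-stimulated genes were lower in 4T1 almost throughout. Of 54 genes, all of them tested, 47 were lower, 2 were higher and 5 were not called, 40 were over 2-fold lower, and the median log2 fold change was -1.71 against -0.003 for all genes. Oas2, an activator of RNase L (chr5:120730333-120749886), had 0.262 and 0.216 CPM in 4T1 and 57.2 and 34.2 CPM in 66cl4 (log2 fold change -7.55 ± 0.46, adjusted p = 4.58e-08). The guanosine triphosphatase Iigp1 had 0.802 and 1.23 against 54.1 and 28.8 CPM, Ifit3b had 0.459 and 0.971 against 31.3 and 18 and Trim30a had 4.49 and 5.2 against 156 and 122. For these genes the first 66cl4 library stood above the second, and both stood far above either 4T1 library. The exceptions were Oasl1 (10.4 and 10.4 CPM in 4T1 against 3.82 and 3.21, log2 fold change 1.56 ± 0.15) and the exonuclease Isg20 (41.6 and 64.1 against 33.9 and 27.7 CPM, adjusted p = 0.00642). Isg20 was no longer called without the second 66cl4 library (0.64, adjusted p = 0.0572). Ifi35 and Ifitm2 did not differ (0.19 ± 0.13 and -0.13 ± 0.10, the latter with 42% of its stretches shared), although Ifi35 was called without the first 4T1 library (0.36, adjusted p = 0.0162).

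The MHC class I genes, many of which interferon also induces, were divided. Of 28 antigen presentation genes, 16 were higher in 4T1, 6 were lower and 6 were not called. The class I heavy chain genes H2-K1 (402 and 514 against 147 and 136 CPM) and H2-D1 (652 and 820.4 against 217 and 201) and the light chain B2m (1258 and 1578 against 641 and 586) were higher in 4T1, with log2 fold changes of 1.70 ± 0.12, 1.82 ± 0.12 and 1.21 ± 0.13. The class I gene H2-T22 was lower (-0.93 ± 0.14, 40% of stretches shared), and H2-M3 did not differ (-0.007 ± 0.11). Nlrc5, the transactivator of class I genes, had 11.2 and 8.59 CPM in 4T1 and 0.309 and 0.29 in 66cl4. H2-Q7 and the NKG2D ligands Raet1d and Raet1e were higher too (3.10, 2.22 and 2.39), each with 17% to 44.1% of its stretches in other family members. The peptide transporter genes went the other way: Tap1 had 20.6 and 25.6 CPM against 98.7 and 86.2, and Tap2 had 68.9 and 80.8 against 155 and 152. PD-L1 (Cd274) was low in both lines and lower in 4T1 (134 and 80 against 144 and 158 counts, log2 fold change -0.76 ± 0.19). BALB/c cells carry a class I haplotype other than that of the reference genome, which can affect the counts of these genes in both lines. Erap1 did not differ (0.15 ± 0.11), but was called without the first 66cl4 library (0.32, adjusted p = 0.0245).

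**Figure D3:**
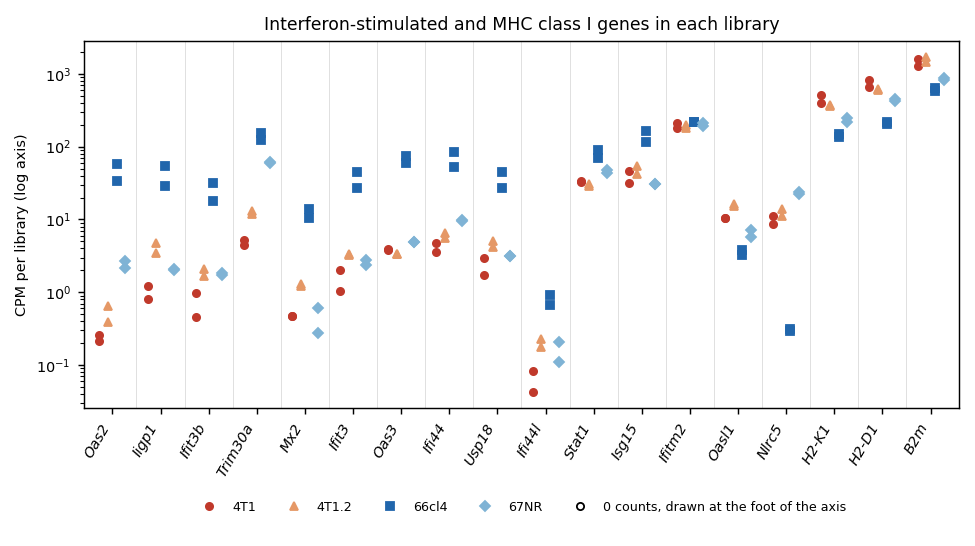
CPM (log axis) of interferon-stimulated and MHC class I genes in each library of the 4 lines, 2 points per line. From Oas2 to Isg15 the 66cl4 libraries lie above the 4T1 libraries, for Ifitm2 the lines nearly meet, and from Oasl1 to B2m the 4T1 libraries lie above; 4T1.2 and 67NR are drawn for reference.

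Genes of the p53 family and its targets were also mostly on the 66cl4 side, with 24 of 28 lower in 4T1, 2 higher and 2 not called, and a median of -1.39. Trp53 itself had 49 and 38.6 CPM in 4T1 and 187 and 218 in 66cl4 (log2 fold change -2.21 ± 0.16, adjusted p = 1.18e-06), and its target Cdkn1a, the cell cycle inhibitor p21, had 29.4 and 31.1 against 133 and 159.8. Trp63, the basal epithelial member of the family (chr16:25683763-25892088), had 10 and 6 counts in 4T1 against 6205 and 6155 in 66cl4. Eda2r, a death receptor gene regulated by p53, had 0 and 2 counts against 2932 and 2705, the antiproliferative Btg2 had 9.48 and 9.38 CPM against 82.7 and 99.2, and the stress gene Sesn2 had 6.83 and 4.81 against 38.2 and 44.7. Cdkn2a had 0 counts in both 4T1 libraries and 40 and 37 in 66cl4, low in either case. The 2 higher members were Perp and the DNA damage gene Gadd45a (18.8 and 22.8 CPM against 7.78 and 7.72). The cell cycle inhibitors Cdkn2c and Cdkn2d did not differ (-0.16 ± 0.086 and 0.14 ± 0.10), although Cdkn2d was called without the first 4T1 library (0.27, adjusted p = 0.0364).

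Hox genes, which mark position along the body axis, differed by cluster. Of 24 tested, 14 were lower in 4T1, 7 were higher and 3 were not called, and 79.2% were past 2-fold. In the Hoxb cluster every tested gene had at most 3 counts per library in 4T1. Hoxb7 had 0 counts in both 4T1 libraries and 37.9 and 39.6 CPM in 66cl4, at least 681-fold lower in 4T1, and Hoxb5 was likewise at 0 against 9.99 and 8.95 CPM (at least 166-fold). Hoxb6 had 0 and 1 counts in 4T1 against 2276 and 2211 in 66cl4, and Hoxb9 had 0 and 1 against 2279 and 2539. Several Hoxa genes were on the other side: Hoxa5 had 318 and 366 CPM in 4T1 and 20.8 and 21.3 in 66cl4 (log2 fold change 4.02 ± 0.11), Hoxa2 had 37.2 and 37.7 against 2.41 and 1.56, and Hoxa4 had 1.95 and 2.48 against 0.309 and 0.402. Hoxa3 was higher as well (1.73 ± 0.18), with 22.5% of its stretches shared with an antisense transcript, and since the strand setting of the counting is not stated, reads of antisense partners cannot be separated anywhere in these clusters. Hoxa7 did not differ (19.4 and 18.8 against 17.4 and 17.1 CPM). Of the Hoxc and Hoxd genes tested, Hoxc4, Hoxc5, Hoxc6, Hoxc9, Hoxd4 and Hoxd8 were lower in 4T1, and Hoxd3 was not called (0.54 ± 0.26).

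**Figure D4:**
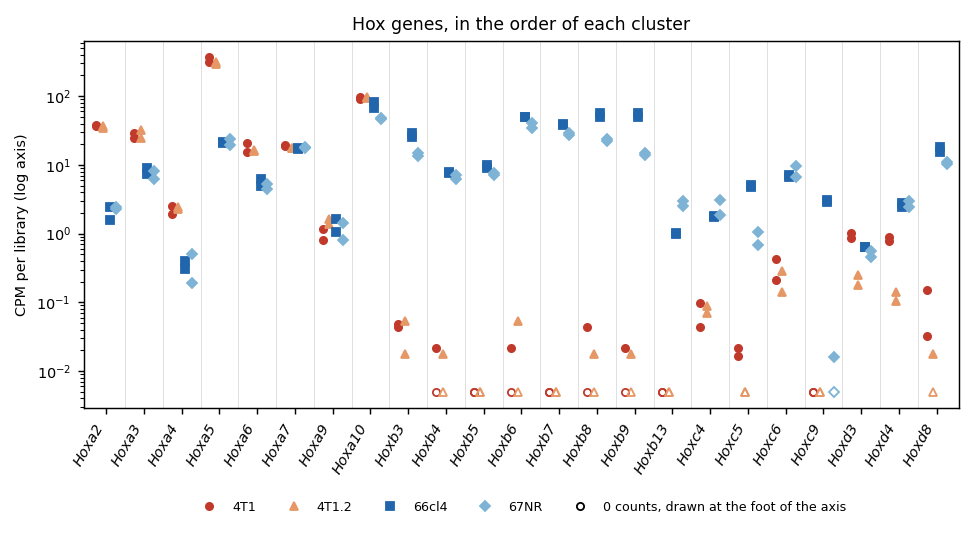
CPM (log axis) of tested Hox genes in the order of each cluster, 2 points for each of the 4 lines, with open points at the foot for 0 counts. Hoxa2 to Hoxa6 are higher in 4T1, Hoxa7 to Hoxa10 lie close together, and Hoxb3 to Hoxb13 lie at or under 0.0491 CPM in 4T1 and at or above 0.972 CPM in 66cl4.

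Other developmental transcription factors were often near 0 in 1 of the lines, with 76.2% of 42 past 2-fold, 23 lower in 4T1, 14 higher and 5 not called. Lbx1, a factor of migrating muscle precursors, had 1 count in each 4T1 library and 10233 and 10282 counts in 66cl4, a ratio of 12230, 66cl4 over 4T1, with a 95% counting interval of 3386 to 101000. Pax3, which acts before Lbx1 in the same precursors, had 0 counts in both 4T1 libraries and 28.8 and 32.2 CPM in 66cl4, at least 536-fold lower in 4T1. Six3 (chr17:85613608-85626191), a forebrain and eye factor, had 0 counts in 4T1 and 54.5 and 67.2 CPM in 66cl4, at least 1069-fold lower, and the T-box factor Tbx18 was at 0 against 44.3 and 41.7 CPM (at least 756-fold). In 4T1, in contrast, Foxa1, a luminal pioneer factor, had 223 and 127 counts against 0 in 66cl4, Sox5 had 417 and 298 against 1 and 0, Gata4 had 659 and 407 against 3 in each 66cl4 library, and Eya2, a co-activator of homeodomain proteins, had 67.5 and 70.6 CPM against 0.884 and 1.27. Irx2 and Tfap2a did not differ (-0.11 ± 0.11 and -0.12 ± 0.15), though Tfap2a was called without the first 4T1 library (-0.36, adjusted p = 0.0391).

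The transcriptional co-activators of the Hippo pathway did not differ between the lines, while some of their known targets did. Yap1 had 278 and 243 CPM in 4T1 and 236 and 260.1 in 66cl4 (log2 fold change 0.07 ± 0.099), and Wwtr1, which encodes TAZ, had 288 and 277 against 270.4 and 299 (-0.009 ± 0.084). Of 35 YAP and TEAD genes 21 were lower in 4T1, 7 were higher and 7 were not called. The matricellular target Ccn1 had 193 and 194 CPM in 4T1 and 1591 and 1802 in 66cl4, a log2 fold change of -3.13 ± 0.13, and tissue factor (F3) had 18.5 and 20.9 against 189 and 228. Vgll3, a TEAD cofactor, had 0 and 1 counts in 4T1 against 4432 and 4916 in 66cl4, and the forkhead gene Foxf2 had 0 against 793 and 859. On the 4T1 side stood Tgfb2 (44.6 and 46.3 against 10.3 and 9.89 CPM), Tead2 (108 and 128 against 40.1 and 40.1), the angiomotin gene Amotl1 (539 and 423 against 174 and 171) and the Hippo kinase Stk3 (146 and 169.6 against 80 and 56.3).

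Mammary lineage genes gave no uniform picture, with 9 of 19 higher in 4T1, 7 lower and 3 not called. The endothelial protein C receptor Procr, a marker of mammary stem cells (chr2:155751125-155755478), had 78.6 and 83.9 CPM in 4T1 and 0 counts in both 66cl4 libraries, at least 1220-fold higher. Csn3, the milk protein kappa-casein, had 10480 and 11070 counts against 3 and 2, a ratio of 3614, 4T1 over 66cl4, with a 95% counting interval of 1548 to 11130. Esr1, the oestrogen receptor, was lower in 4T1 (10.2 and 8.59 against 30.6 and 35.8 CPM, log2 fold change -1.82 ± 0.13), as was Cd24a (659 and 710.1 against 1287 and 1311). Basal markers were split: Trp63 and Acta2 (8 and 9 against 155 and 152 counts) were lower in 4T1 and Krt14 and Krt17 higher, all but Trp63 at no more than 3.43 CPM. Cd44 was slightly higher in 4T1, at 0.24 ± 0.082 (adjusted p = 0.0226), and was not called when only the 4 libraries were fitted (adjusted p = 0.0905) or without the second 4T1 library or the first 66cl4 library (adjusted p = 0.0552 and 0.112).

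Genes of energy metabolism moved mostly in 1 direction, many by small steps. Of 37 glycolysis and hypoxia genes, 31 were higher in 4T1, 2 were lower and 4 were not called, with a median log2 fold change of 1.00. The members with the largest changes were the membrane carbonic anhydrase Car12 (119.9 and 122 CPM against 5 and 1 counts), the heart lactate dehydrogenase chain Ldhb (20.4 and 24.6 against 0.133 and 0.134 CPM), enolase 2 (Eno2, 14.8 and 17.7 against 0.243 and 0.223) and aldolase C (Aldoc, 19.1 and 33.2 against 0.442 and 0.446). The 2 lower members were adrenomedullin (Adm), at 5.49 and 9.6 CPM against 87.6 and 95.9, and Pfkfb4 (-0.56 ± 0.11). The second 4T1 library was higher than the first for Aldoc, Adm and Ldha. Genes of other lists also differed between the 4T1 libraries, some upward (Krt18, 845 and 1200 CPM) and some downward (Fn1, 686 and 442 CPM). The standard errors are taken gene by gene, and a shift shared by many genes was not tested.

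Subunits of the respiratory chain and ATP synthase were higher in 4T1 for 39 of 46 genes, lower for 0 and not called for 7, with 21.7% past 2-fold against 34.5% of all genes and a median of 0.67. Ndufb9, a complex I subunit, had the largest change, with 822 and 1120 CPM in 4T1 and 95.2 and 88.2 in 66cl4 (log2 fold change 3.40 ± 0.15, 13.4% of stretches shared), followed by Cox6c (2.35 ± 0.13), Uqcrq (1.73 ± 0.13) and Ndufb5 (1.73 ± 0.16). Ndufb9, Cox6c and the mitochondrial ribosomal gene Mrpl13 (446 and 549 against 68.8 and 65.1 CPM) all lie on chromosome 15, whose tested genes had a median shift of 0.207. Sdha was called at only 0.25 ± 0.078 (adjusted p = 0.0159), and was not called without the first 66cl4 library (adjusted p = 0.0652) or when only the 4 libraries were fitted (adjusted p = 0.0808). Uqcrc2 did not differ (0.17 ± 0.12).

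Lipid synthesis changed little in size, with 22 of 41 genes lower in 4T1, 10 higher and 9 not called, and 19.5% past 2-fold. Dhcr7, the last enzyme of cholesterol synthesis, had 50.9 and 50.6 CPM in 4T1 and 291 and 295 in 66cl4, and Mvd was lower by less (-1.04 ± 0.096). The fatty acid elongase Elovl7 (60.8 and 68.8 against 0.331 and 0.134 CPM), the sterol exporter Abcg1 (137 and 87 against 4 and 1 counts) and the mevalonate enzyme Pmvk (46.1 and 55.2 against 10.4 and 12.1 CPM) were higher in 4T1. Glutathione and NRF2 genes were lower in 4T1 for 20 of 44, higher for 9 and not called for 15. The aldehyde dehydrogenases Aldh1a1 (1 and 0 against 111 and 129 counts) and Aldh3a1 (39.7 and 47.1 against 309 and 302 CPM) were lower, and so was haem oxygenase (Hmox1, 10.1 and 12.2 against 32.4 and 34.6). The carbonyl reductase Cbr1 (13.1 and 15.6 against 0.552 and 0.446 CPM), Mgst2 (63.8 and 92.5 against 6.5 and 6.23) and the cystine transporter Slc7a11 (29.9 and 26.3 against 7.27 and 6.74) were higher. Thioredoxin (Txn1) and transketolase (Tkt) did not differ (-0.0016 ± 0.12 and 0.22 ± 0.12), although Tkt was called without the first 4T1 library (0.36, adjusted p = 0.0145).

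Cell division genes changed little. Of 46 tested, 22 were higher in 4T1, 8 were lower and 16 were not called, and only 8.70% were past 2-fold. The 4 members past 2-fold were cyclin A2 (Ccna2, 373 and 351 against 172 and 180.2 CPM) and cyclin E2 (Ccne2, 43.5 and 42.5 against 25 and 17.7) on the 4T1 side, and cyclin D2 (Ccnd2, 62.7 and 63.4 against 339 and 358) and the spindle motor Kif11 (256 and 228 against 593 and 518) on the 66cl4 side. The proliferation marker Mki67 was not called, with 576 and 474 CPM in 4T1 and 914 and 306 in 66cl4. Its first 66cl4 library stood well above the second, as it did for the kinetochore genes Cenpe (279.6 and 81.3 CPM) and Cenpf (284 and 59.4 CPM), which were not called either. The spindle factor Tpx2 and the ribonucleotide reductase chain Rrm1 did not differ (-0.0092 ± 0.082 and 0.04 ± 0.088).

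Genes listed as markers of other cell types were mostly silent. Of 16 leucocyte genes 5 passed the filter, and of these the lysozyme Lyz2 had 0 and 1 counts in 4T1 against 980 and 791 in 66cl4, S100a8 had 205 and 215 against 3 and 2, and Cd14 had 67.1 and 78.8 against 39.4 and 40.5 CPM, while Ptprc, the defining leucocyte gene, had 2 and 0 counts in 4T1 but 0 in 66cl4. Of 10 endothelial genes 4 passed, Tie1 with 370 and 336 against 1 and 0 counts and VE-cadherin (Cdh5) with 204 and 90 against 3 and 2, while the endothelial Kdr had 1 count in each 4T1 library and 0 in 66cl4. Desmin (Des), a muscle filament, was lower in 4T1 (17 and 14 against 215 and 162 counts).

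The genes with the largest fitted changes among those of at least 10 CPM in the higher line were all at 0 counts in the lower line. For such genes the fitted change depends on the prior count, so the order is not a measured ranking of fold. On the 4T1 side, with 0 counts in 66cl4, these were Nptx1, a neuronal pentraxin (107 and 88.7 CPM, at least 1469-fold), Ndrg2 (69.4 and 99.9 CPM), Procr, the glycosyltransferase Galnt3 (80.7 and 78.6 CPM), Tgfa, the integrin ligand Edil3 (68 and 74.8 CPM), Perp, Epcam, the sodium channel Scn8a (37.3 and 37.1 CPM) and Ydjc (24.2 and 25.7 CPM, 30.7% of stretches shared with its neighbour). On the 66cl4 side they were Six3, Prrg1 (50.2 and 37.5 CPM, at least 769.8-fold), the lipoprotein receptor Vldlr (44.5 and 42 CPM), Tbx18, Hoxb7, Slit2, the potassium channel Kcnj2 (34.1 and 31.7 CPM), the polarity gene Pard3b (30.5 and 30.6 CPM), Pax3 and Grem1. A gene with a stray count in the lower line can be left out of this ranking. Lbx1, with 1 count in each 4T1 library, was fitted at -13.4. Grem1, at 0 counts in 4T1, was fitted at -13.6, although Lbx1 had more counts than Grem1 in both 66cl4 libraries. With at most 3 counts in each library of the other line, 134 genes reached 10 CPM in 4T1 alone and 116 in 66cl4 alone.

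Per length, the most abundant transcripts over 4-fold higher in 4T1 were Lgals1, Ctsl, Ndufb9, the endoplasmic reticulum chaperone Hspa5, Wfdc2, Mmp3, Krt18, Anxa5, Cox6c and Mrpl13. Hspa5 had 3477 and 3978 CPM in 4T1 and 864 and 794 in 66cl4 (log2 fold change 2.17 ± 0.12), and Anxa5, a phospholipid-binding annexin, had 1070 and 1331 against 304 and 292. Wfdc2, a secreted whey acidic protein family member, had the widest gap of these genes, with 769.6 and 1117 CPM against 8 and 6 counts in 66cl4. The corresponding transcripts in 66cl4 were Spp1, Ccn1, Ly6e, Id1, Thbs1, Prrx2, Bmp4, Lbx1, Csf1 and Cxcl12. Thrombospondin-1 (Thbs1), an inhibitor of vessel growth, had 167 and 146 CPM in 4T1 and 2103 and 1965 in 66cl4, and the mesenchymal homeobox gene Prrx2 had 10 and 8 counts against 13528 and 13445.

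Many highly expressed genes differed too. Of 766 genes with a mean of at least 100 RPKM over the 4 libraries, 530 (69.2%) were called against 70.1% of all genes, 120 were over 2-fold higher in 4T1 and 38 over 2-fold lower. Changes past 2-fold were less common among them, at 20.6% against 34.5% of all genes. By the rule given, 181 of the 766 (23.6%) did not differ, against 16.7% of all genes. The most abundant of these by RPKM were Mir682, Rack1, Anxa2, Igfbp4, Rbm3-ps, Txn1, Cd9, Sqstm1, Mtap, Itm2b, Slc25a3 and Cnbp. Rack1, a scaffold of the small ribosomal subunit, had 1608 and 2206 CPM in 4T1 and 2168 and 1777 in 66cl4, a log2 fold change of -0.05 (95% interval -0.44 to 0.34). Annexin A2 (Anxa2) had 1292 and 1736 against 1521 and 1487 CPM (0.0099, -0.30 to 0.32). Igfbp4, a secreted IGF-binding protein, had 1989 and 2243 against 2116 and 2248 CPM (-0.04, -0.28 to 0.19), beside the gap in Igf2.

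The tetraspanin Cd9 (-0.11, -0.34 to 0.12), the autophagy receptor Sqstm1 (0.10, -0.14 to 0.34), the methylthioadenosine phosphorylase gene Mtap (-0.12, -0.34 to 0.11), the phosphate carrier Slc25a3 (0.03, -0.16 to 0.22) and the nucleic acid-binding Cnbp (0.19, -0.03 to 0.40) were alike in both lines within these bounds. Mtap is the neighbour of Cdkn2a, which had 0 counts in 4T1. Itm2b met the rule with all libraries (0.17, -0.11 to 0.46) but was called without the first 4T1 library (0.36, adjusted p = 0.0106). Mir682 and Rbm3-ps are records of which 100% and 76.5% of the stretches occur in other genes, so that their counts may belong elsewhere, and Mir682 was called without the second 4T1 library (-0.44, adjusted p = 0.0054).

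Chromosomes differed modestly in their median. The median log2 fold change of the 440 tested genes of the X chromosome lay 0.593 under that of all genes (-0.593, and -0.606 to -0.551 over the 4 pairs of libraries), with 70 genes higher in 4T1 and 259 lower. Chromosome 16 followed at -0.395, with 91 of 424 higher and 226 lower. Chromosome 14 had the largest positive shift, 0.408, with 252 of 480 higher and 93 lower, ahead of chromosomes 12 (0.284), 11 (0.273), 1 (0.257) and 15 (0.207). DNA copy number was not measured, and the part it has in these shifts was not tested.

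**Figure D5:**
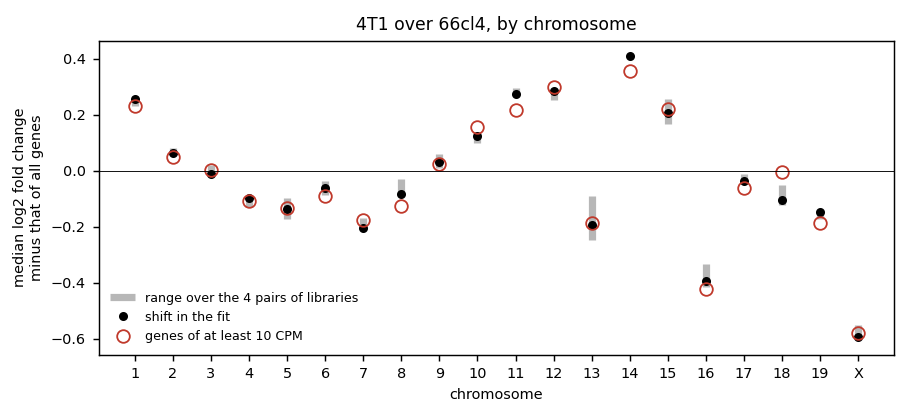
Median log2 fold change (4T1 over 66cl4) of the tested genes of each chromosome minus the median of all tested genes, as fitted (black points), over the 4 pairs of 1 library per line (grey bars) and for genes of at least 10 CPM (red circles). X lies lowest at -0.593 and chromosome 14 highest at 0.408, and the pairs of libraries stay near the fitted value.

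Runs of at least 3 neighbouring protein-coding genes with at most 3 counts per library in 1 line and a mean of at least 1 CPM in the other occurred 5 times. In 4T1 the longest was the Hoxb run of 7 genes (chr11:96271330-96347930), with 10 counts in all over the 2 libraries against 7.66 to 53.6 CPM per gene in 66cl4. A second comprised Cibar1, Triqk and Runx1t1 (chr4:12153142-13895056), read at 116 and 107 CPM, 13.6 and 10.2 CPM and 10.8 and 10.2 CPM in 66cl4 and at 2 counts in all in 4T1. Another held Gm4951, Gm4841 and F830016B08Rik on chromosome 18, at 3.5 to 7.44 CPM in 66cl4. In 66cl4 the silent runs were 5 immune receptor genes of the Cd300 family, Cd300c2, Cd300ld4, Cd300ld2, Cd300ld5 and Cd300ld3 (chr11:114996721-115048419), at 1.69 to 15 CPM in 4T1, and Dnase2b, Uox and 4930503B20Rik (chr3:146569733-146685892), at 1.21 to 5.37 CPM. Gene coordinates are those of RefSeq on GRCm38.p6. Whether these stretches are lost or silenced was not tested.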

How the data were processed

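RNA sequencing of 4 cell lines, each with 2 libraries, was used. The authors made TruSeq RNA v2 libraries, aligned the reads to mm10 and counted them per gene with featureCounts, and the deposited values are raw counts per gene. The strand setting is not given in the sources used here. The 27179 Entrez identifiers were matched to the RefSeq gene table of GRCm38.p6 (25275, or 93.0%, had an entry), and the 8 deposited single-library tables held the same values as the matrix.

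CPM (scaled by TMM factors), RPKM (from the gene lengths in the count table) and fold changes were computed here. Genes passing filterByExpr (15269) and left after removal of predicted and ribosomal genes and identifiers without an entry (13923 tested) were fitted over all 8 libraries with edgeR 4.0.16 in R 4.3.3 (quasi-likelihood test, 4 residual degrees of freedom, biological coefficient of variation 9.74%), and p-values were adjusted by the Benjamini-Hochberg method with a threshold of 0.05. The SE is the approximate Wald value. A few genes are not reported here. The fitting code was tested on simulated data. The p-values measure the spread between libraries of a line, which the study calls biological replicates, and not between independent lines. Replicates differed by more than sampling noise (chi-square per gene 75.4 and 58.1). Stretches shared between genes were counted as 75-base words of GENCODE M21 transcripts.

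The members and lists were chosen with earlier results of these data known. Named were, per list, up to 4 genes per direction with the largest change among called genes with no overlap and at least 1 CPM and up to 2 of at least 10 CPM that did not differ, the 10 largest changes per direction at 10 CPM or more, the 10 most abundant genes over 4-fold changed per direction, the 12 most abundant that did not differ, and 9 genes named in the study's text. Chosen after their values were seen were 4930503B20Rik, Ackr3, Adamts4, Areg, B2m, Ccr7, Cd300c2, Cd300ld2, Cd300ld3, Cd300ld4, Cd300ld5, Cdkn1a, Cdkn2a, Cenpe, Cenpf, Cibar1, Cldn7, Dnase2b, Egf, Epgn, F830016B08Rik, Fn1, H2-D1, H2-K1, H2-M3, Hbegf, Hes6, Hey1, Hoxa10, Hoxa6, Hoxb13, Hoxb3, Hoxc4, Hoxc5, Hoxc6, Hoxc9, Hoxd3, Hoxd4, Hoxd8, Id2, Id3, Ifit1, Ifit3, Irf7, Isg15, Jag1, Krt14, Krt17, Krt8, Ldha, Lfng, Maml1, Maml2, Maml3, Mfng, Mki67, Notum, Nrarp, Nrg2, Nrg4, Numb, Rfng, Runx1t1, Smad6, Smad7, Tcf7, Triqk, Trp53, Twist1, Uox, Vim, Zeb1, Zeb2, Zmynd15 and Znrf3.

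Alternatives were DESeq2 1.42.0, limma-voom (limma 3.58.1), other scalings and filters, thinning to the smallest total, a replicate block and leaving out each library.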

Additional observations from a re-analysis of the deposited data

How the results depend on the processing

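Across 21 alternatives no called gene among the 265 named by rule changed direction. With at least 10 counts required in every library, 1295 genes were over 2-fold higher in 4T1 and 1400 lower, since genes silent in 1 line are then not tested. When the null was a log2 fold change of 1, 1879 genes were higher and 1807 lower, and 25 of the 265 lost their call. Without one library at a time, genes higher in 4T1 numbered 4395 to 4848 and lower 4377 to 4873, those over 2-fold 2280 to 2425 and 2258 to 2550, and abundant genes that did not differ 158 to 215; a line left with 1 library is assumed to vary like the others. The replicate numbers were not taken to pair the libraries: the difference between replicates 1 and 2 correlated at -0.0569 across genes between the lines (-0.123 to 0.27 over the 6 pairs of all lines), and a replicate block gave 4917 genes higher and 4991 lower and called Man1a and Met as well. Under the other alternatives the total of calls stayed between 8899 and 10385, against 9756.

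With 2 libraries per line, some small changes were called or not depending on the libraries fitted: Cd44, Sdha, Isg20, Canx and Srebf1 each lost their call under at least 1 alternative. Genes at 0 counts have lower bounds only, and genes under the filter were not tested.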
